A study of Homo sapiens with 2 samples.

Results

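Chromatin immunoprecipitation followed by sequencing (ChIP-Seq) for Capicua (CIC) gave 17 called regions at 7 developmental transcription factor loci, out of 178 regions in the deposited list. The loci are named for the homeobox genes EMX1, MEIS2 and ZFHX4, the COUP-TF nuclear receptors NR2F1 and NR2F2, and the basic helix-loop-helix (bHLH) genes SIM1 and HEY1. The regions were chosen by the position of their called summits, that is, by the CIC over IgG contrast itself, so their number, fold enrichment, q-value and width are given as a description and no test was run on them. MEIS2 had 4 regions, EMX1, NR2F1 and NR2F2 had 3 each, ZFHX4 had 2, and SIM1 and HEY1 had 1 each. The highest folds of the 17 were at MEIS2 and ZFHX4, close to 10, and the lowest, close to 5, were at EMX1, MEIS2, NR2F2 and ZFHX4.

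The cells were PNT2, immortalized cells from normal prostate epithelium, and the labels name no treatment and no gene change. There was 1 library from a CIC antibody pulldown and 1 from an IgG pulldown, an antibody with no set target that gives the background. Both came from cells fixed in 1% formaldehyde for 10 min. With 1 library per group there is no replicate spread. Intervals on reads and ratios below cover counting error only, and intervals on medians come from the spread among regions. The latter treat regions as independent draws, although several share a locus and the deposited list is complete. They describe the spread of regions and not that of experiments. RNA was not examined here, so neither the expression of the 7 genes nor markers of prostate epithelium could be set beside the regions.

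CIC is a transcriptional repressor with a high-mobility group box that binds a short, conserved octamer in DNA. Signalling through receptor tyrosine kinases and MAPK relieves its repression, and the PEA3 ETS genes are its best known targets. Homeobox, COUP-TF and bHLH factors set regional and cell identity during development. MEIS2 is a TALE homeodomain protein that partners HOX proteins, EMX1 marks the developing dorsal forebrain, and ZFHX4 is a large protein with both zinc fingers and homeodomains. NR2F1 (COUP-TFI) and NR2F2 (COUP-TFII) are orphan nuclear receptors. SIM1 is a bHLH-PAS factor needed for hypothalamic neurons, and HEY1 is a bHLH repressor induced by Notch.

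Positions were given in hg19 (GRCh37), the build named in the submitters' processing notes, with the first base counted as 1. A region was counted for a gene when its summit, the position of the highest read pileup, lay in a window on that gene's chromosome. The windows ran from 73.10 to 73.20 Mb on chromosome 2 for EMX1, 37.18 to 37.45 Mb on 15 for MEIS2, 77.55 to 77.80 Mb on 8 for ZFHX4 and 92.88 to 92.98 Mb on 5 for NR2F1. Those for NR2F2, SIM1 and HEY1 ran from 96.82 to 96.98 Mb on 15, 100.80 to 100.95 Mb on 6 and 80.64 to 80.72 Mb on 8. An hg19 gene annotation was not used here, so distance to a gene start and a place in a promoter, exon, intron or UTR were not analysed. Other genes share these neighbourhoods. In the GRCh38.p14 gene table the nearest protein-coding neighbours are SPR and SFXN5 for EMX1, CDIN1 and TMCO5A for MEIS2, and HNF4G and PEX2 for ZFHX4. They are MCTP2 and ARRDC4 for NR2F2, MCHR2 and ASCC3 for SIM1, and STMN2 and TPD52-MRPS28 for HEY1. Antisense or other non-coding genes overlap 5 of the 7, namely ZFHX4-AS1, NR2F1-AS1, SIM1-AS1, NR2F2-AS1 with MIR1469, and MIR8063 with LOC124903465 at MEIS2. A region near such a pair cannot be assigned to one of the pair.

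RefSeq promoter windows (GRCh38.p14) at annotated starts of these genes were searched for the 4 octamers of the conserved CIC motif, TGAATGAA, TGAATAAA, TCAATGAA and TCAATAAA, and for GGAA, the core of ETS sites, on both strands. TGAATGGA, which the study gives for CIC at ETV1, was added after the data were seen. The table held windows for 4 of the 7 genes, MEIS2, NR2F1, NR2F2 and SIM1, with 2 windows each. Of the 8 windows, 2 lay at the outermost start of the gene, 1 for NR2F1 and 1 for SIM1, and the others, with all of those of MEIS2 and NR2F2, lay at internal starts. None of the 8 windows of 300 bp held 1 of the 4 octamers or TGAATGGA. Of all 34796 distinct windows of that length, 4.54% held at least 1 of the 4 and 1.02% held TGAATGGA. GGAA was found in 7 of the 8 windows and in 95.5% of all windows, so its presence does not set these genes apart. The windows at the outermost annotated start of NR2F1 and SIM1 are printed from 250 bp before to 20 bp after the start, 5′ to 3′ on the gene's strand, with GGAA in capitals. They are chr5:93582972-93583241 on the plus strand and chr6:100464902-100465171 on the minus strand in GRCh38.p14. The called regions are in another build, so whether any of them covers these starts was not determined, and these letters say nothing of the sequence under the regions.
NR2F1: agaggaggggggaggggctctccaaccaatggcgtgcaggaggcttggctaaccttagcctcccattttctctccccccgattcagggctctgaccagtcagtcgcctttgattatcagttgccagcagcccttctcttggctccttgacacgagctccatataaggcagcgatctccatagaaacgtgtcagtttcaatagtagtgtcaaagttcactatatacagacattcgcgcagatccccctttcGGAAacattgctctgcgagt
SIM1: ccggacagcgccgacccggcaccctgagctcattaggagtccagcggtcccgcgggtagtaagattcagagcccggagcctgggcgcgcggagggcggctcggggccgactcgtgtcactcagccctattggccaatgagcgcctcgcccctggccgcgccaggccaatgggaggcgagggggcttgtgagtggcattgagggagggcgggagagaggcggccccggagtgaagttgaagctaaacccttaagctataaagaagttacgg
GGAA began right at the annotated start of NR2F1. The printed SIM1 stretch held none, but the full window of 300 bp at that start held 2. The window without GGAA was the one at the internal start of SIM1.

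All 17 regions had a q-value of 0.05 or less, a limit met by 91.6% of the deposited list. At 0.01 or less there were 15 of 17, beside 81.5% of the list. The exceptions were the first region of EMX1 and the first of MEIS2, both with a q-value of 0.0170. The median fold enrichment of the 17 was 6.61 (order-statistic 95% interval, 5.25 to 7.89), and over all 178 regions it was 6.02 (5.62 to 6.22). The 17 are part of the 178, and several share a locus. The intervals describe the spread of regions and do not test a difference. The deposited fold is a linear ratio with 1 added to both the CIC pileup and the background. Of the 17 regions, 10 were above the median fold of the whole list, 8 above its median width of 282 bp and 6 above its median of 18 CIC reads at the summit. By fold the windows held 3 of the first 10 regions, 2 at MEIS2 and 1 at ZFHX4, and by CIC reads they held none of the first 20.

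**Figure D1:**
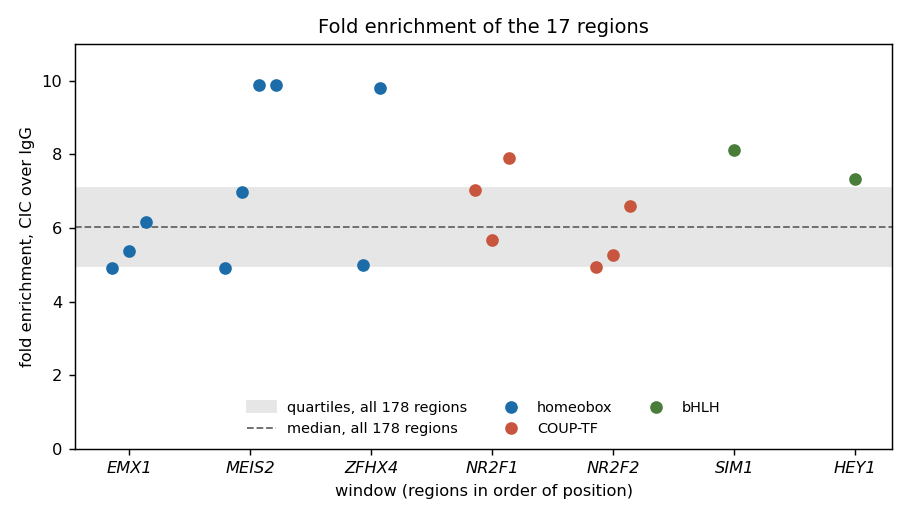
Deposited fold enrichment (CIC over IgG, linear) of the 17 regions by window, 1 point per region in order of position, coloured by gene family. The dashed line is the median of all 178 regions (6.02) and the grey band runs between their quartiles (4.96 and 7.08). The 2 highest MEIS2 regions (9.89) and the higher ZFHX4 region (9.81) stand above the band, as do SIM1 (8.12), 1 region of NR2F1 (7.89) and HEY1 (7.34).

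At MEIS2, 4 regions fell within 8584 bp and formed 2 close pairs. The lower pair was chr15:37394471-37394725, with a fold of 4.92, and chr15:37395065-37395949, with a fold of 6.99 and a q-value of 2.71e-06. Their summits held 12 and 17 CIC reads (exact 95% Poisson intervals, 6.20 to 21.0 and 9.90 to 27.2). Backgrounds are given at the depth of the IgG library, to which the CIC pileup was scaled. The upper pair began 4070 bp further on, with chr15:37400020-37402044 and chr15:37402275-37403054, which lay 230 bp apart. Both of these had 23 CIC reads at the summit (14.6 to 34.5) over a background of 0.905, the genome-wide rate, and so shared 1 fold of 9.89 and 1 q-value of 2.89e-11. The first of this pair was 2025 bp wide, the second widest of all 178 regions. The 2 pairs differed in level, with 12 and 17 reads in the lower and 23 and 23 in the upper, but the intervals of all 4 overlapped.

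ZFHX4 had a narrow and a wide region 516 bp apart. The narrow one, chr8:77585846-77586113, was 268 bp wide and had a fold of 4.98 with a q-value of 0.00299. The wide one, chr8:77586630-77587670, was 1041 bp wide and had a fold of 9.81 with a q-value of 2.09e-12, the lowest q-value of the 17. CIC reads at the summit were 18 (10.7 to 28.4) in the narrow region and 25 (16.2 to 36.9) in the wide one. The fold differed more than the reads, and the background was 2.00 reads at the narrow region and 1.08 at the wide one. The narrow region was the sole member whose background came from the IgG reads at the summit itself. There were 2 such reads, and the plain ratio of CIC reads to background, with nothing added, was 6.98 and had an exact 95% interval of 1.67 to 62.0.

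EMX1 had 3 narrow regions of low to middling fold. The first, chr2:73142070-73142263, stood 3856 bp apart from the others and had a fold of 4.92 with 12 CIC reads (6.20 to 21.0). The second, chr2:73146120-73146275, was 156 bp wide, the narrowest width in the list, with a fold of 5.38, a q-value of 0.00202 and 13 CIC reads (6.92 to 22.2). Other regions of the list share this width, which equals the fragment length that the backgrounds fit. The third, chr2:73146548-73146755, had a fold of 6.17, a q-value of 0.000252 and 15 CIC reads (8.40 to 24.7). Together the 3 regions covered 558 bp, the least of the 5 loci with more than 1 region. Their reads overlapped throughout, so no order among them was resolved. The first EMX1 region and the first MEIS2 region had the same 12 reads and the same background of 1.09, and hence equal fold and q-value.

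**Figure D2:**
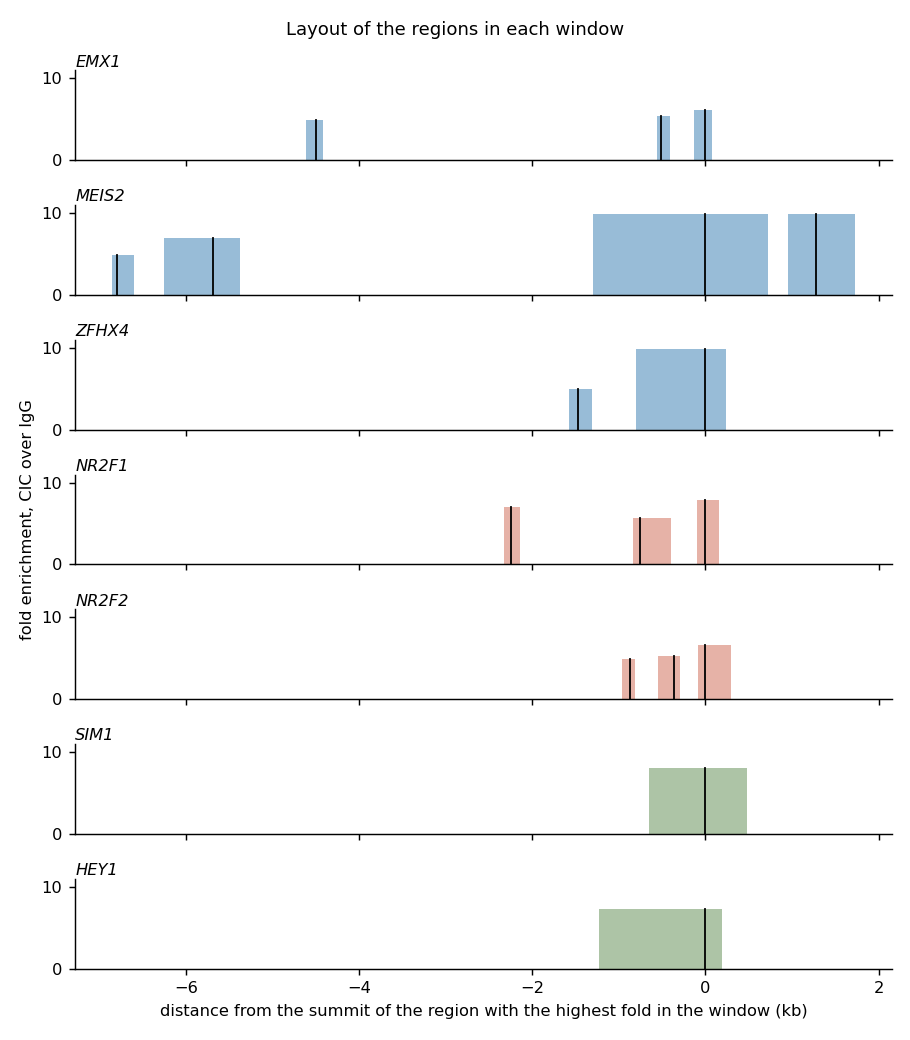
Layout of the regions in each window. Bars span each region (x axis, kb from the summit of the region with the highest fold in that window, the lower of 2 equal ones at MEIS2) and their height is the deposited fold enrichment (CIC over IgG), with the summit as a black line. MEIS2 shows 2 pairs over 8584 bp, the NR2F2 regions are packed into 1266 bp, and SIM1 and HEY1 have a single wide region each.

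The COUP-TF genes NR2F1 and NR2F2 each had 3 regions in a tight group. At NR2F1 the regions were chr5:92944927-92945112, chr5:92946410-92946854 and chr5:92947149-92947406, which together spanned 2480 bp. Their folds were 7.04, 5.67 and 7.89, so the middle region was the lowest. The q-values in the same order were 6.58e-06, 0.00263 and 6.47e-08. CIC reads were 16 (9.15 to 26.0), 14 (7.65 to 23.5) and 20 (12.2 to 30.9). The first region rested on the genome-wide background rate, and the other 2 on a background of 1.09 reads.

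At NR2F2 the regions were chr15:96953911-96954068, chr15:96954331-96954581 and chr15:96954795-96955176. They lay 262 and 213 bp apart and spanned 1266 bp. The folds were 4.93, 5.25 and 6.61, and the q-values were 0.00351, 0.00326 and 2.47e-05. CIC reads were 16 (9.15 to 26.0), 15 (8.40 to 24.7) and 18 (10.7 to 28.4). Reads were thus at about the level of NR2F1, 49 in all against 50, while the background was higher, from 1.26 to 1.72 reads against 0.905 to 1.09. Of these 6 backgrounds, 4 could have come from 1 kb or 10 kb, and taken as 1 kb they rest on 7 to 11 IgG reads. The third of NR2F2 was read from 10 kb with 81. The 0.905 is the genome-wide rate and not a local count, and the difference in background was not tested.

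The bHLH genes each had a single wide region. The SIM1 region, chr6:100909176-100910316, was 1141 bp wide with a fold of 8.12, a q-value of 9.78e-08 and 19 CIC reads (11.4 to 29.7). It was 1 of only 5 deposited regions on chromosome 6. The HEY1 region, chr8:80678080-80679503, was 1424 bp wide with a fold of 7.34, a q-value of 3.53e-07 and 20 CIC reads (12.2 to 30.9). Its summit lay 1232 bp from the lower edge, or 86.5% of the way across, while that of SIM1 was at 57.5%. Among the 178, SIM1 ranked 11 by width, 26 by fold and 71 by CIC reads, and HEY1 ranked 7, 38 and 61.

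**Figure D3:**
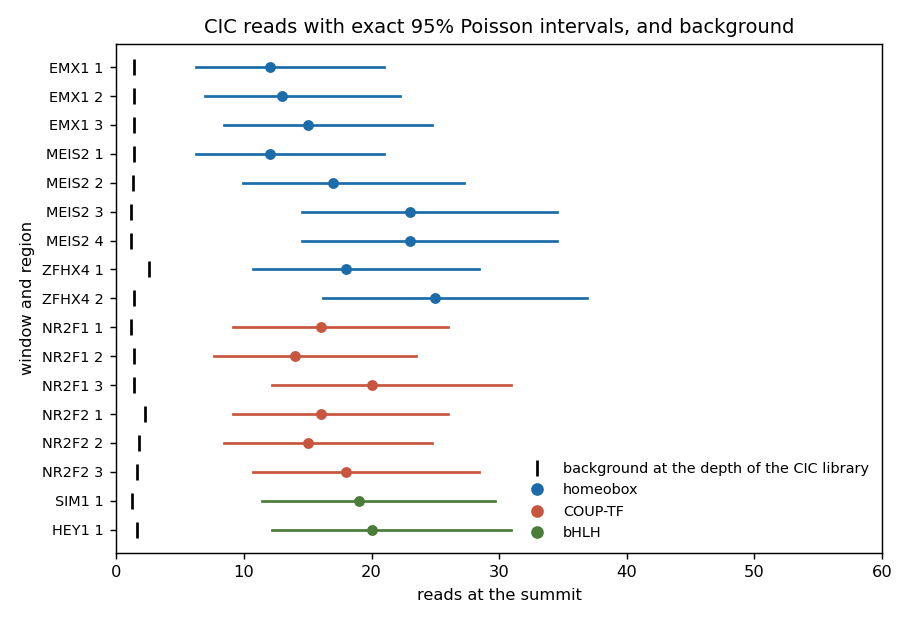
CIC reads at the summit of each of the 17 regions (x axis; points) with exact 95% Poisson intervals (lines), numbered by position within each window. Black ticks give the background at the depth of the CIC library. Reads run from 12 to 25 and every interval overlaps every other, while the background lies between 1.17 and 2.58 reads.

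The depth behind these values was low. CIC reads at the 17 summits ran from 12 to 25, with a median of 17, where the genome-wide mean was 1.17 reads per fragment length of 156 bp. Of the 136 pairs that can be made of the 17 regions, 0 had separate intervals of CIC reads and 0 had separate intervals of the plain ratio to background. For 8 of the regions the background could have come from 1 kb or 10 kb, and the 1 kb reading, with the wider interval, was used. With 10 kb, 2 pairs separated, the first NR2F2 region (ratio 7.23) from each of the upper 2 MEIS2 regions (19.7). By this overlap, a stricter rule than a direct comparison of counts, the order of the 17 by strength was mostly not resolved. The lower bound of the ratio was above 1 for each region, the lowest being 1.67, which the calling of peaks selects for.

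Width varied over a wider range than CIC reads or fold. The 17 regions ran from 156 to 2025 bp with a median of 268 bp (95% interval, 208 to 885), and over all 178 the median was 282 bp (258 to 339). As for fold, these intervals do not test a difference. At MEIS2, ZFHX4, SIM1 and HEY1, 6 regions were wider than 500 bp, among 42 such regions in the list, or 23.6%. Wider than 1000 bp were 4 of the 17 and 13 of the 178. The regions of EMX1, NR2F1 and NR2F2 were all 445 bp or narrower. By covered length the 17 regions made up 13.2% of the list, and by number 9.55%.

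**Figure D4:**
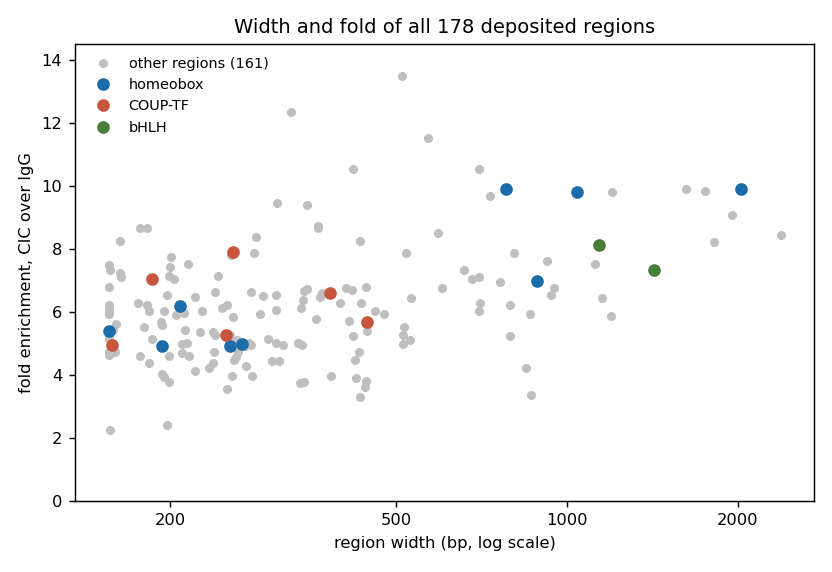
Width (x axis, bp, log scale) and deposited fold enrichment (y axis, CIC over IgG) of all 178 regions. Grey points are the 161 regions outside the windows and coloured points the 17 inside, by gene family. COUP-TF points lie at 445 bp or less, the 2 bHLH points lie beyond 1000 bp, and homeobox points run from 156 to 2025 bp.

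Members tended to sit beside each other. Of the 17, 15 had another summit within 10 kb, all but those of SIM1 and HEY1, and outside the windows this held for 50 of 161 regions (31.1%). The 178 regions formed 9 groups of 3 or more with successive summits within 10 kb, of which 4 were those of EMX1, MEIS2, NR2F1 and NR2F2. With regions 1 kb or less apart joined, the 17 became 10 units, 2 each at EMX1, MEIS2 and NR2F1 and 1 at each other gene. The joined upper MEIS2 unit was 3035 bp, the second widest of 149 in the joined list, and the joined ZFHX4 unit was 1825 bp. Since the windows were drawn around called regions, this closeness is a description too.

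Few other regions were nearby. Summits inside the windows lay 25.1 to 55.5 kb from the nearer window edge. The closest region outside any window was 681 kb beyond that of HEY1, at chr8:81400560-81400715, with a fold of 4.73 and 17 CIC reads. For MEIS2 it was chr15:38546753-38546990, 1097 kb away, with a fold of 4.38 and a q-value of 0.323. For EMX1 it was chr2:74741029-74741299, 1541 kb away, with a fold of 4.90, and for NR2F2 chr15:99164359-99164928, 2184 kb away, with a fold of 11.5. The nearest to ZFHX4 was the HEY1 region itself, 2879 kb from the ZFHX4 window. For NR2F1 it was chr5:122427233-122427568, 29447 kb away, with a fold of 5.00. For SIM1 it was chr6:134213022-134213480, 33263 kb away, with a fold of 6.04. Widening each window by 100 kb added no region.

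Family relatives could be placed by chromosome only. Of 17 relatives, EMX2, MEIS1, MEIS3, ZFHX2, ZFHX3, NR2F6, NR2C1, NR2C2, NR2E1, NR2E3, SIM2, HEY2, HEYL, HES1, HES4, PBX3 and PKNOX1, all lay on a chromosome with at least 1 deposited region. Every autosome held a deposited region, so this would be true of any autosomal gene. Chromosomes 19 (MEIS3 and NR2F6) and 21 (SIM2 and PKNOX1) held 1 region each. Distances from these genes to the regions were not analysed.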

How the data were processed

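PNT2 cells gave 1 CIC and 1 IgG ChIP-Seq library. Per the labels, chromatin was sonicated, while the paper describes an enzymatic kit, and which applied was not settled. The submitters' processing notes name bcl2fastq 2.17, Trimmomatic 0.33, Bowtie 1.1.2, MACS2 2.1.0 and hg19. Settings, duplicate handling and region filters are not given in the sources used here. Reads repeated by the 13 cycles of amplification are not independent molecules. The authors called regions on the single CIC library against IgG, with no pooling. The deposited fold is a linear ratio with 1 added to each side. The deposited −log10 values are those of the p-value and q-value at the summit, and the deposited score equals 10 × −log10 q, cut to a whole number.

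CIC reads were recovered from fold and p-value (scipy 1.17.1). A scale of 0.775 gave whole reads, to within 0.001 read, in 178 of 178 regions. Dividing this scale by a whole number would keep reads whole too. If 0.775 is the scale, the CIC depth was 1.29 times that of IgG. In 4 regions a second whole solution came within 0.003 read, and the closer one was taken. Library totals were not analysed here. Leaving out whole-number backgrounds and the genome-wide rate, backgrounds fit a fragment of 156 bp in 99 of 99 regions. On 5 lists simulated with the same formula, and with the scale searched only close to its true value, reads were right in 890 of 890 regions. Neither the wide search for the scale nor the lowest counts seen here were tested. Intervals are exact Poisson for reads, and Clopper-Pearson for the ratio, or Poisson at the genome-wide rate.

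Every region in a window, and the nearest outside it, is named. Some related and neighbouring genes are not reported here. Windows, lists and motifs were chosen with earlier results of these data known. Alternatives were q-value limits, overlap in place of summit, wider windows, joined regions, the ratio without the added 1, and another scale.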

Additional observations from a re-analysis of the deposited data

How the results depend on the processing

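Of 32 alternative values, 28 stayed within 1.5 times the count, or within the interval of the median over the 17 regions, and 4 did not. Several of the 28 could not have moved. All 17 regions met the q-value limit of 0.05, so that setting returned the same regions. Overlap in place of summit and windows widened by 100 kb also returned these 17 regions. The values of these settings therefore repeat the main ones and say nothing more of stability. Joining regions 1 kb or less apart turned 17 regions into 10 units and the median width of 268 bp into 1203.5 bp, both by construction. Without the addition of 1 the median fold of 6.61 became 11.1, which weighs on low backgrounds by construction. At the next best scale for the recovered reads, 0.3876, the median of 17 reads became 32. That scale lies close to the scale used divided by a whole number, so it is not an independent alternative. It was tried only on a coarse grid, where it gave whole reads in 78 of 178 regions. The 78 cannot be set against the full count at the scale used, since dividing the latter by a whole number keeps all reads whole. Whole reads alone therefore do not settle the scale. The number of loci with a region stayed at 7 in each alternative run for it, but overlap, wider windows and joining could not have lowered it. Windows widened by 1 Mb held 18 regions. The search for motifs within the regions was not run, since no genome of that build was used here. No paired analysis was possible because there was 1 CIC and 1 IgG library. Depth, 12 to 25 CIC reads at a summit, limits the ranking of regions, and counting intervals say nothing of the spread between experiments.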
